A study of Mus musculus with 4 samples.

Results

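A set of 10 noncoding RNA genes was followed in mouse lung group 2 innate lymphoid cells (ILC2s): the nuclear RNAs Malat1 and Neat1, the small nucleolar RNA (snoRNA) host genes Gas5, Snhg1, Snhg3, Snhg5, Snhg6, Snhg8 and Snhg12, and the imprinted RNA Meg3. They were taken by exact gene symbol, which found 10 of the 55401 gene models in the deposited tables, 1 row for each. The ILC2s came from lungs of C57BL/6 mice and were stimulated for 6 h with IL-33 plus Ang II (angiotensin II, a peptide hormone best known for raising blood pressure), or for 6 h with IL-33 alone, an alarmin that activates these cells. Cells of both groups therefore received IL-33, and a group without it is not part of the comparison. Each sample held 500 cells, and 2 libraries were made for IL-33 plus Ang II and 2 for IL-33. The labels do not say whether libraries came from separate mice or cultures. Levels are FPKM, fragment counts scaled by transcript length and by library size, which allows a rough comparison between genes. It is least sure for rows as short as those of snoRNAs. A snoRNA and its host are therefore compared by their pattern over libraries and not by level.

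The genes were proposed as abundant, and the values fit that name for few of them. Only Malat1 and Gas5 stood at 5 FPKM or more in every library, while Neat1 and Meg3 stayed under 1 FPKM in every library. Malat1 alone made up 86.4% and 94.7% of the summed FPKM of the 10 genes in the Ang II libraries, and 95.8% and 95.4% in the IL-33 libraries. The genes are therefore described by name and not as an abundant class.

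Malat1 RNA stays in the nucleus and gathers at speckles, the stores of splicing factors, and its 3′ end is made by RNase P cleavage rather than by ordinary polyadenylation. Neat1 RNA is the scaffold of paraspeckles, nuclear bodies that hold RNA-binding proteins. SnoRNA host genes carry snoRNAs, which guide chemical modification or cleavage of ribosomal RNA, inside their introns. Once spliced, many of these host transcripts are degraded by nonsense-mediated decay, and many begin with a stretch of pyrimidines that places their translation under growth control. Meg3 is expressed from the maternal copy of the imprinted Dlk1-Dio3 region.

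The sequences around the annotated starts are shown because Snhg8 and Snhg1, the members with the clearest separation between groups, can be compared there with Malat1 and with members that did not separate. RefSeq starts on GRCm38.p6, the same assembly as the mm10 build named by the submitters, were found for 8 of the 10 members. Each stretch holds 40 bases before the start and 40 from it, 5′ to 3′ on the gene's strand. Capitals mark the longest unbroken run of C and T within 20 bases either side of the start, and the letters TATAAA where they occur on the gene's strand before it.
Snhg8, chr3:123508297-123508376, minus strand: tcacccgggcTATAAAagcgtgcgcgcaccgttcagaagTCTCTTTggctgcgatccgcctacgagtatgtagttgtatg
Snhg1, chr19:8723447-8723526, plus strand: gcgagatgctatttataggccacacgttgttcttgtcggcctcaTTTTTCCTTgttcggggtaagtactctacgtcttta
Snhg12, chr4:132308638-132308717, plus strand: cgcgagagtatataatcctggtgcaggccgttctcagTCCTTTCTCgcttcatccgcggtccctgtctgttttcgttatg
Snhg5, chr9:88522858-88522937, minus strand: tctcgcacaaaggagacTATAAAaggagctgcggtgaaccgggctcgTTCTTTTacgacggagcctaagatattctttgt
Gas5, the second of 2 starts, chr1:161035126-161035205, plus strand: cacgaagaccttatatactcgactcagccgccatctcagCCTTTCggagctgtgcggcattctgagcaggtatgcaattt
Malat1, chr19:5802633-5802712, minus strand: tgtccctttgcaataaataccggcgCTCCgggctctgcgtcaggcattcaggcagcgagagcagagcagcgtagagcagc

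The pyrimidine runs were 9 bases in Snhg1 and Snhg12, 7 in Snhg8 and Snhg5, 6 at this Gas5 start and 4 in Malat1. At the member starts not printed they were shorter, 3 at the first Gas5 start, 5 in Snhg3, and 5 and 3 in Meg3. The median over all starts in the same source was 5. A run of at least 8 bases was found at 16.0% of these 32851 starts, and at 2 of the 10 member starts. The letters TATAAA, searched on both strands in the 40 bases before the start, occurred on the gene's strand in Snhg8, Snhg5 and Meg3, 3 of 10 member starts against 2.31% of all starts. On the opposite strand they occurred in Snhg1 and Meg3, against 0.907% of all starts, and in Meg3 the sites on both strands overlapped. These matches describe letters at annotated starts. Starts in use in these cells were not measured.

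Facts of the whole series bear on every value. The FPKM sum of a library ranged from 394808 to 431014, and 12028 to 13401 gene models had a value above 0. The tables hold no counts, which leaves sequencing depth unknown and allows no counting intervals. The IL-33 libraries were close copies of each other, with Pearson r = 0.994 across genes on log2(FPKM + 1), a description over genes that are not independent replicates. Of genes averaging at least 5 FPKM in a pair, 0.0187% were at 0 in only 1 IL-33 library, against 14.4% for the Ang II pair. Between the Ang II libraries the spread over genes was 11.2 times counting noise, and between the IL-33 libraries 1.04 times. Depth for both was estimated from zeros in the IL-33 pair, so a value near 1 is partly built in for that pair. The value of the Ang II pair assumes the same depth, which was not estimated for it, and would change with another depth. As the IL-33 libraries were close copies, their mean was used as 1 sample. Of 9215 genes tested, 67.8% differed by 2-fold or more between the Ang II libraries and 21.2% were listed at 0 in exactly 1 of them. The comparison of Ang II with IL-33 was fitted over these 9215 genes with limma, and 0% passed an adjusted p of 0.05 in either direction. At an unadjusted p under 0.05, 2.79% were higher and 10.8% lower with Ang II. The fit takes the spread of the IL-33 sample to equal that of the Ang II libraries.

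**Figure D1:**
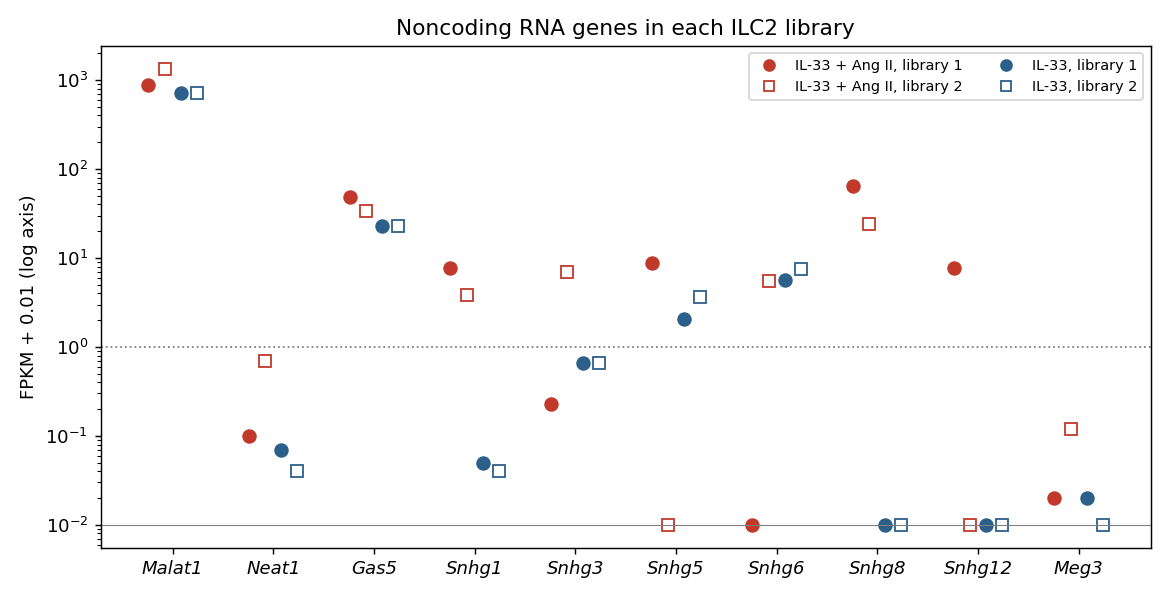
FPKM of each of the 10 genes in each library on a log axis after adding 0.01, with the 2 IL-33 plus Ang II libraries in red left of the 2 IL-33 libraries in blue; the solid line is a listed 0 and the dotted line 1 FPKM. Malat1 stands far above the rest in all 4 libraries, and Snhg8 and Snhg1 are the genes near 0 with IL-33 and above 1 FPKM in both Ang II libraries.

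Malat1 (chromosome 19, 5795690 to 5802672, minus strand, mm10) is covered by annotated exons over all of its 6983 bases. Malat1 stood at 873.76 and 1341.30 FPKM with Ang II, against 721.63 and 711.98 FPKM with IL-33. Both Ang II values lay above both IL-33 values, at 1.22 and 1.87 times the IL-33 mean. The Ang II libraries differed from each other by 1.54 times, close to the ratio of 1.55 between the group means. On log2(FPKM + 1) the difference was 0.59 (SE 0.41), with an adjusted p of 0.775 by limma with Benjamini-Hochberg adjustment. By level Malat1 was the 61st and the 31st most abundant gene model in the Ang II libraries, and the 61st and the 65th in the IL-33 libraries. It took 0.205% and 0.340% of the FPKM sum with Ang II, against 0.167% and 0.165% with IL-33.

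Neat1 lies beside Malat1 on chromosome 19 (5824708 to 5845478, minus strand) and spans 20771 bases. Neat1 was listed at 0.09 and 0.69 FPKM with Ang II, against 0.06 and 0.03 FPKM with IL-33. Both Ang II values lay above both IL-33 values, the first by a small margin. Neat1 did not reach the mean of 1 FPKM required for a test. Short noncoding models inside it, annotated on the same strand, were listed at no more than 1.37 FPKM in any library, and the table does not separate the short and long Neat1 isoforms. The neighbours thus differed in level by a wide margin in every library.

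Gas5 (chromosome 1, 161034422 to 161038539, plus strand) is a snoRNA host whose spliced RNA builds up in growth-arrested cells. Gas5 stood at 48.71 and 33.90 FPKM with Ang II, against 22.89 and 22.78 FPKM with IL-33. The groups did not overlap, and the Ang II libraries were 2.13 and 1.48 times the IL-33 mean. Between the Ang II libraries Gas5 differed by 1.44 times, and the library with the higher Gas5 was the one with the lower Malat1. The difference was 0.81 (SE 0.46) on log2(FPKM + 1), adjusted p = 0.775 by limma. The 5′ end of the Gas5 locus overlaps Zbtb37, a gene on the opposite strand, which was listed at 0.54 and 0.14 FPKM with Ang II and at 0 in both IL-33 libraries. Whether strand was used in counting is not given in the sources used here.

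Snhg8 (chromosome 3, 123507552 to 123508404, minus strand), host of a single snoRNA, had the widest separation. Snhg8 stood at 64.47 and 24.16 FPKM with Ang II, against a listed 0 in each IL-33 library. No fold can be given against a listed 0, which in such a table need not mean absence. With Ang II it ranked next to Gas5 among the 10 genes, above it in the first library and below it in the second. Its unadjusted p was 0.0421 and its adjusted p 0.336 by limma, so it did not pass. With the IL-33 libraries counted as separate replicates, a fit in which 5.34% of 9095 genes passed as higher and 13.0% as lower, Snhg8 and Snhg1 passed, with adjusted p-values of 0.0234 and 0.0436 by limma.

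Snhg1 (chromosome 19, 8723475 to 8726443, plus strand) hosts a series of snoRNAs of the box C/D class. Snhg1 stood at 7.76 and 3.87 FPKM with Ang II, against 0.04 and 0.03 FPKM with IL-33. Both Ang II values were far above both IL-33 values, and they differed from each other by 2.01 times. On log2(FPKM + 1) the difference was 2.66 (SE 0.79), adjusted p = 0.492 by limma. The size of this difference depended on the scale, at 5.37 with a pseudocount of 0.1, 1.08 with one of 5 and 3.74 with FPKM rescaled to a common sum. That rescaling also raised every value against a pseudocount kept at 1. Snhg1 and Snhg8 were the only members under 0.1 FPKM in both IL-33 libraries and at 1 FPKM or more in both Ang II libraries. Of all genes tested, 4.26% had that pattern.

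The other hosts were set by single Ang II libraries. Snhg12 (chromosome 4, 132308623 to 132311024, plus strand) stood at 7.73 FPKM in the first Ang II library and was listed at 0 in the second and in both IL-33 libraries. Snhg5 (chromosome 9, 88521050 to 88522929, minus strand), host of the snoRNAs of the U50 type, stood at 8.83 FPKM and at a listed 0 with Ang II, against 2.04 and 3.62 FPKM with IL-33. Snhg6 (chromosome 1, 9941959 to 9944118, minus strand) was listed at 0 and stood at 5.53 FPKM with Ang II, against 5.62 and 7.43 FPKM with IL-33. These 3 genes were each listed at 0 in exactly 1 Ang II library, Snhg5 and Snhg12 in the second and Snhg6 in the first. The second Snhg6 value lay just below the lower IL-33 value, and above it once FPKM were rescaled to a common sum or scaled without haemoglobin genes.

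Snhg3 (chromosome 4, 132348014 to 132353686, minus strand), host of the U17 type snoRNAs that act in processing of ribosomal RNA, split the other way from Snhg5. Snhg3 stood at 0.22 and 6.92 FPKM with Ang II, against 0.65 FPKM in both IL-33 libraries. It thus lay below IL-33 in one Ang II library and 10.6 times above it in the other. Of overlapping genes, Rcc1 on the same strand was listed at 0 in all 4 libraries, and Gm17300 on the opposite strand stood at 5.99 to 6.46 FPKM with IL-33 and at a listed 0 with Ang II. For Snhg3, Snhg5 and Snhg6 the limma differences were 0.91 (SE 1.77), -0.29 (SE 2.19) and -1.56 (SE 1.83), with adjusted p-values of 0.837, 0.954 and 0.775. For each of these, the Ang II libraries differed by more than the groups.

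**Figure D2:**
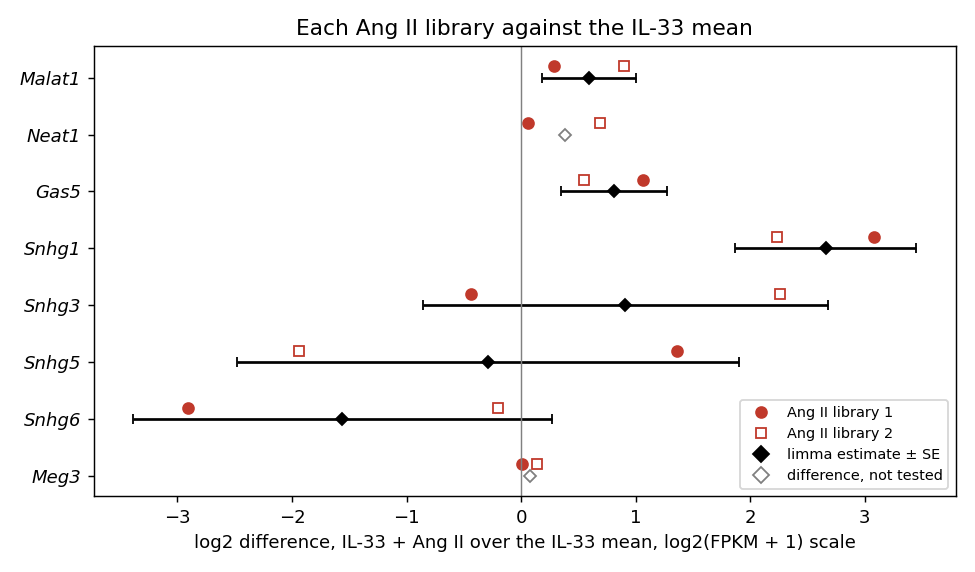
Difference in log2(FPKM + 1) between IL-33 plus Ang II and the IL-33 mean for the 8 members with a value above 0 in an IL-33 library; red symbols are the 2 Ang II libraries, black diamonds the limma estimate with its SE, and open grey diamonds differences that were not tested. Malat1, Gas5 and Snhg1 lie right of 0 in both libraries, while Snhg3 and Snhg5 fall on both sides.

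Meg3 (chromosome 12, 109541001 to 109571726, plus strand) was near 0 in every library. Meg3 was listed at 0.01 and 0.11 FPKM with Ang II, against 0.01 and 0 FPKM with IL-33. It did not enter the test. None of the 7 genes listed for the Dlk1-Dio3 region reached the level needed for a test, and Dlk1, Rtl1, Dio3 and Begain were listed at 0 in all 4 libraries. Rian, a noncoding RNA gene of the same region, stood at 0 and 0.10 FPKM with Ang II and at 0 with IL-33, and Mirg, its neighbour that carries microRNAs, at 0.11 and 0 FPKM with Ang II and at 0 with IL-33. Summed levels of 8 fibroblast and stromal markers, cells in which Meg3 is commonly seen, were also low, at 1.71 and 1.67 FPKM with Ang II, against 2.12 and 1.69 FPKM with IL-33.

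Across the 10 genes, 5 lay above both IL-33 libraries in both Ang II libraries: Malat1, Neat1, Gas5, Snhg1 and Snhg8. Snhg6 was the only one below both, and the other 4 overlapped or tied. Of the gene models with a value above 0 in a library, 17.1% lay above and 24.4% below by the same rule, and among genes tested these shares were 24.4% and 33.5%. None of the 8 members tested passed the adjusted threshold, and Snhg8 was the only one at an unadjusted p under 0.05. Of those 8, Snhg1, Snhg3, Snhg8 and Snhg12 passed the filter on low values through the Ang II libraries, since their IL-33 mean was under 1 FPKM, and a count over the tested members is therefore tilted toward higher values. Over all 10 genes the median difference was 0.70 on log2(FPKM + 1), 0.67 and 0.62 in the separate Ang II libraries, beside a median of -0.00 over all genes tested. The 8 tested members had a median of 0.86. Snhg8 and Snhg12 enter these medians by a difference from a listed 0, which is not a fold. Summed over the 6 Snhg members, the level was 89.0 and 40.5 FPKM with Ang II, against 8.35 and 11.7 FPKM with IL-33. Most of the sum was Snhg8 with Ang II and Snhg6 with IL-33.

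Spread within a group was far wider with Ang II. Of the 10 members, 8 differed by 2-fold or more between the Ang II libraries, with 67.8% of all genes tested as the background. Between the IL-33 libraries 2 did, Neat1 and Meg3, both at 0.06 FPKM or less. The order of levels also differed between the Ang II libraries. In the first it ran Malat1, Snhg8, Gas5, Snhg5, Snhg1, Snhg12, and in the second Malat1, Gas5, Snhg8, Snhg3, Snhg6, Snhg1. In both IL-33 libraries it ran Malat1, Gas5, Snhg6, Snhg5, Snhg3, with the rest under 0.1 FPKM. With Ang II, the values of Gas5 and Snhg8 overlapped each other and lay above those of the other snoRNA hosts, and the values of Snhg1, Snhg3, Snhg5, Snhg6 and Snhg12 overlapped one another.

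Of the members, 7 hold snoRNA genes on their own strand, 29 in all by GENCODE M21, of which 11 had a value above 0 in a library. The snoRNA rows add a second reading of the same loci, although a short snoRNA and an unspliced or retained intron of its host cannot be told apart in these tables. The sequences below are those of snoRNAs with at least 5 FPKM in a library, one for each host described. Capitals mark TGATGA near the 5′ end and the last CTGA near the 3′ end, the letters of boxes C and D, or ACA near the 3′ end in a snoRNA of the box H/ACA class.
Snora24, inside Snhg8, chr3:123507937-123508066, minus strand: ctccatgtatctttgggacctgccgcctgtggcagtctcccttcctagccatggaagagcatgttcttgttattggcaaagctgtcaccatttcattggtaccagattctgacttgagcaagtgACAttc
Snord87, inside Snhg6, chr1:9942463-9942549, minus strand: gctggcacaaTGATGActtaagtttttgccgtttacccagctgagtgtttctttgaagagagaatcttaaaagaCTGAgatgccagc
Gm22357, inside Gas5, chr1:161036057-161036139, plus strand: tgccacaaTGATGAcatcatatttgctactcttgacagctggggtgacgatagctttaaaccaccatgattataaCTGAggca

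Snora24, the snoRNA of Snhg8, followed its host. Snora24 stood at 98.70 and 26.12 FPKM with Ang II, against a listed 0 in each IL-33 library, the pattern of Snhg8 at 64.47 and 24.16 FPKM and at 0. In the annotation it lies in an intron of 2 of the 3 Snhg8 transcripts and within an exon of the other, so the rows can share reads and are not independent readings.

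Snord87, the snoRNA of Snhg6, lies in an intron of all 5 Snhg6 transcripts. Snord87 was listed at 0 in each Ang II library, against 24.06 and 27.21 FPKM with IL-33. Its host was also at 0 in the first Ang II library but not in the second, at 5.53 FPKM. In the second Ang II library the host and its snoRNA therefore differed.

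The Gas5 locus holds 10 snoRNA models, of which 8 had a value above 0. Gm22357 stood at 0 and 48.73 FPKM with Ang II, against 45.71 and 50.87 FPKM with IL-33. Its host Gas5 was highest in the Ang II library where Gm22357 was listed at 0. In the annotation Gm22357 lies in an intron of 15 of the 25 Gas5 transcripts and within an exon of 4. Reads can therefore be shared or assigned to either row, and the rows are not independent readings. Gm50452 stood at 0 and 48.32 FPKM with Ang II and at 0 in both IL-33 libraries. Gm25789 stood at 0.01 and 13.72 FPKM with Ang II and at 0 with IL-33. In the first Ang II library, no snoRNA row of Gas5 was above 0.01 FPKM. Of the 8 snoRNA models in Snhg1, Gm24452 alone had a value, 0.25 FPKM in the second Ang II library, and the 2 models each in Snhg3 and Snhg5 and the 5 in Snhg12 were listed at 0 in every library.

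**Figure D3:**
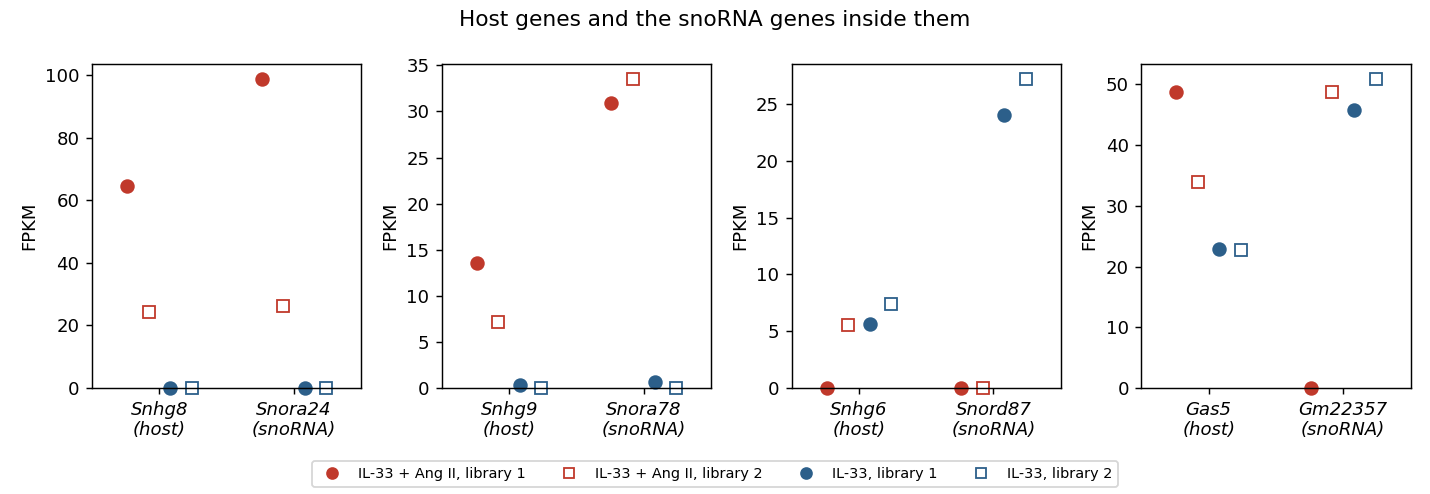
FPKM of 4 snoRNA host genes and of a snoRNA gene inside each, with the 2 IL-33 plus Ang II libraries in red left of the 2 IL-33 libraries in blue; each panel has its own scale from 0. Snora24 and Snora78 stand with their hosts Snhg8 and Snhg9 in both Ang II libraries, while Snord87 and Gm22357 part from Snhg6 and Gas5 in one library each.

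Other long noncoding RNAs were taken from a list of 39 symbols, of which 37 are in the tables and 13 gene models were tested. In both Ang II libraries 5 of the 13 lay above both IL-33 values and 2 below, against 24.4% and 33.5% of all genes tested, and none passed the adjusted threshold. Of the 13, 5 had an IL-33 mean under 1 FPKM and passed the filter through the Ang II libraries, which tilts this count toward higher values. Their median difference was 0.94, at 1.88 without Ang II library 2, 0.55 without library 1 and 0.07 with no filter. The filter was applied anew when a library was left out, which changed the genes tested. For the same 13 gene models the median was 1.30 in Ang II library 1 and 0.00 in library 2. The most abundant were Rn7sk, the RNA that holds the elongation factor P-TEFb inactive, Rpph1, the RNA of RNase P, and Oip5os1. Rn7sk overlapped between groups, at 234.44 and 93.03 FPKM with Ang II, against 146.56 and 141.19 FPKM with IL-33. Rpph1 stood at 0.23 and 0.49 FPKM with Ang II, against 44.93 and 47.98 FPKM with IL-33 (log2 difference -5.13, SE 0.66, adjusted p = 0.209 by limma). Oip5os1 overlapped, at 19.63 and 15.93 FPKM with Ang II, against 16.82 and 17.02 FPKM with IL-33.

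The 5 that lay above, named after their values were seen, were 4 further snoRNA hosts and Xist, the RNA that silences an X chromosome. Snhg9 stood at 13.55 and 7.14 FPKM with Ang II, against 0.33 and 0 FPKM with IL-33, and its snoRNA Snora78 at 30.95 and 33.51 FPKM with Ang II, against 0.61 and 0 FPKM with IL-33. Snhg15 stood at 41.37 and 7.97 FPKM with Ang II, against 3.46 and 3.37 FPKM with IL-33. Snhg9 and Zfas1, like Snhg8, were low with IL-33 and present in both Ang II libraries. Zfas1, but not Snhg9, was under 0.1 FPKM in both IL-33 libraries and at 1 FPKM or more in both Ang II libraries. Of all genes tested, 4.26% had that pattern. Snhg20 stood at 28.59 and 3.94 FPKM with Ang II, against 2.46 and 2.47 FPKM with IL-33. Zfas1 stood at 46.56 and 4.45 FPKM with Ang II, against 0.06 and 0 FPKM with IL-33. In each of these hosts the first Ang II library was the higher, as it was for Gas5, Snhg1, Snhg5, Snhg8 and Snhg12 but not for Snhg3 and Snhg6. Unlike Snora78, the snoRNAs of Snhg15, Snhg20 and Zfas1 did not stand with their hosts in both Ang II libraries. Snora9 in Snhg15 was listed at 0 throughout, and Gm26083 in Snhg20 was above 0 only in the IL-33 libraries. Snord12 in Zfas1 stood at 52.53 and 0 FPKM with Ang II and at 0 with IL-33. Xist stood at 8.04 and 4.49 FPKM with Ang II, against 2.71 and 2.62 FPKM with IL-33. Besides Rpph1, the host gene Dancr was lower, at 0.03 and 0 FPKM with Ang II, against 9.50 and 10.85 FPKM with IL-33 (adjusted p = 0.174 by limma).

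The mRNAs of proteins that act on these RNAs were followed as separate lists, and the lists did not share a direction. Of 16 tested core snoRNP and assembly proteins, 6 lay above and 6 below by the rule used for the members, beside 24.4% and 33.5% of all genes tested. Their median log2 difference was -0.16, and its sign depended on the library, at 0.82 without Ang II library 2 and -0.51 without Ang II library 1. Snu13, which binds the first fold of box C/D snoRNAs, stood at 73.54 and 94.35 FPKM with Ang II, against 34.50 and 35.17 FPKM with IL-33. Nop10, a box H/ACA subunit, stood at 79.15 and 59.59 FPKM with Ang II, against 44.75 and 42.11 FPKM with IL-33. Nop56, a box C/D subunit whose own gene hosts snoRNAs, went the other way, at 23.69 and 10.56 FPKM with Ang II, against 84.34 and 85.93 FPKM with IL-33. Of the other box H/ACA subunits, named after their values were seen, Dkc1 and Nhp2 were lower in both Ang II libraries. Gar1 was not tested. Dkc1 stood at 0.03 and 0.05 FPKM with Ang II, against 29.72 and 29.54 FPKM with IL-33. Nhp2 stood at 32.38 and 35.19 FPKM with Ang II, against 41.32 and 41.31 FPKM with IL-33. None of the 16 passed the adjusted threshold.

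Of 23 tested speckle and Malat1 processing proteins, 9 lay above and 3 below, beside 24.4% and 33.5% of all genes tested. Their median was 0.28, and it was 0.43 without Ang II library 1 and 0.48 without library 2. Of the 23, 5 had an IL-33 mean under 1 FPKM and so passed the filter through the Ang II libraries. The most abundant were the splicing factors Srsf5, Hnrnpc and Srsf7. Srsf5 stood at 166.02 and 166.98 FPKM with Ang II, against 239.76 and 242.70 FPKM with IL-33. Hnrnpc stood at 200.01 and 162.69 FPKM with Ang II, against 107.49 and 108.12 FPKM with IL-33. Srsf7 stood at 152.97 and 199.14 FPKM with Ang II, against 106.32 and 106.52 FPKM with IL-33, so the groups did not overlap for any of the 3. None of the 23 passed, and Srsf5 had an adjusted p of 0.567 by limma.

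Of 22 tested paraspeckle proteins, 5 lay above and 8 below, shares close to the 24.4% and 33.5% of all genes tested. Their median was -0.46, but -0.06 with no filter on low values, -0.05 without Ang II library 1 and -0.20 without library 2. Taken per Ang II library the median was -0.11 and -0.06. Hnrnpk stood at 53.68 and 100.53 FPKM with Ang II, against 94.85 and 101.39 FPKM with IL-33, and overlapped. Ewsr1 stood at 16.64 and 33.16 FPKM with Ang II, against 34.13 and 34.52 FPKM with IL-33. Hnrnpm stood at 36.31 and 29.72 FPKM with Ang II, against 25.01 and 23.94 FPKM with IL-33. The mRNAs of these 3 proteins were thus above 10 FPKM in all 4 libraries, while Neat1 was under 1 FPKM in each.

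Of 17 tested nonsense-mediated decay factors, 3 lay above and 3 below, beside 24.4% and 33.5% of all genes tested. Their median of 0.26 held no stable sign, at -0.08 with a pseudocount of 0.1, -0.08 with a filter of 5 FPKM, -0.04 with no filter and 0.04 without Ang II library 1. Magoh, a subunit of the exon junction complex, stood at 221.67 and 94.05 FPKM with Ang II, against 156.98 and 149.26 FPKM with IL-33. Eif4a3, another subunit, stood at 148.63 and 58.60 FPKM with Ang II, against 146.81 and 156.27 FPKM with IL-33. Pnrc2, which links the decay factor Upf1 to decapping, stood at 171.04 and 88.15 FPKM with Ang II, against 53.06 and 47.96 FPKM with IL-33. Of these, Pnrc2 alone did not overlap (adjusted p = 0.763 by limma).

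Protein-coding genes listed as snoRNA hosts lay to both sides. Of 34 in the annotation, 28 hold a snoRNA gene on their strand, and of the 31 tested, 10 lay above and 11 below, beside 24.4% and 33.5% of all genes tested, with a median of 0.01. Hspa8 stood at 705.87 and 685.87 FPKM with Ang II, against 620.61 and 623.49 FPKM with IL-33. Cnbp, one of the 6 without an annotated snoRNA, stood at 784.65 and 588.02 FPKM with Ang II, against 592.44 and 521.31 FPKM with IL-33. Atp5b overlapped, at 203.06 and 187.17 FPKM with Ang II, against 189.91 FPKM in both IL-33 libraries. Hspa8 thus lay above both IL-33 values in both Ang II libraries, Cnbp overlapped, and none of the 31 passed the adjusted threshold.

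**Figure D4:**
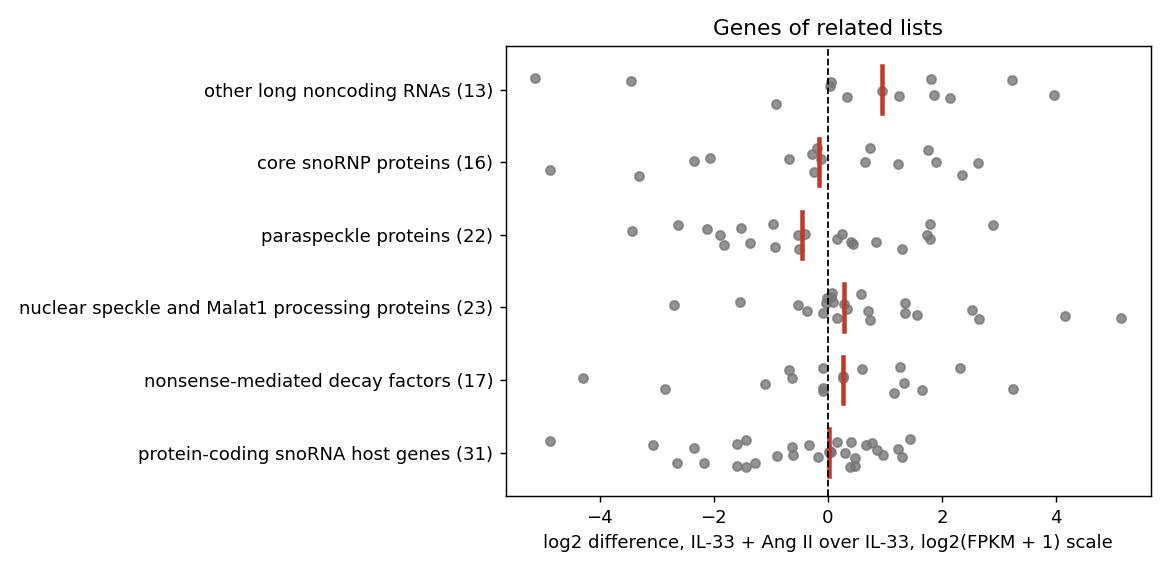
Difference in log2(FPKM + 1) between IL-33 plus Ang II and IL-33 for each tested gene (grey points) of 6 related lists, with the number tested in brackets, the list median as a red bar and the median of all tested genes as a dashed line; points of genes listed at 0 in a group are differences and not folds. Medians run from -0.46 for paraspeckle proteins to 0.94 for other long noncoding RNAs, values that shift when an Ang II library is left out, and every list spreads to both sides of 0.

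Markers of ILC2s and of other cells were followed in the same libraries. Among gene models above 0 in a library, 17.1% lay above and 24.4% below both IL-33 libraries in both Ang II libraries, the background for the marker counts. The summed level of 14 ILC2 markers, of which 4 were higher and 1 lower, was 2620 and 2375 FPKM with Ang II, against 2340 and 2360 FPKM with IL-33, with Il5 listed at 0 in all 4. Of 6 red blood cell markers, 5 were lower and 1 higher in both Ang II libraries, with sums of 3831 and 1592 FPKM with Ang II, against 25146 and 24943 FPKM with IL-33. Of 13 T cell markers, 10 were lower and 1 higher, with sums of 1074 and 473 FPKM with Ang II, against 1399 and 1397 FPKM with IL-33. For red blood cell and T cell markers both Ang II sums were below both IL-33 sums. The same held for the endothelial, epithelial, neutrophil and macrophage, monocyte and dendritic cell sums given below.

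The 6 B cell markers, 1 higher and 1 lower, summed to 93.0 and 3.10 FPKM with Ang II, against 20.8 and 18.5 FPKM with IL-33. The 7 NK cell and ILC1 markers, with Tbx21, Klrb1c, Klre1 and Ncr1 at 0 throughout, summed to 0.0900 and 13.3 FPKM with Ang II, against 0.180 and 0.05 FPKM with IL-33. The 6 endothelial markers, 1 higher and 1 lower and with Cdh5, Tie1 and Kdr at 0 throughout, summed to 0.280 and 9.76 FPKM with Ang II, against 30.8 and 30.5 FPKM with IL-33. The Ang II libraries differed from each other in all 3 sums.

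Of 10 epithelial markers, 4 were lower and 2 higher, with sums of 89.2 and 196 FPKM with Ang II, against 366 and 356 FPKM with IL-33, and Sftpd, Krt18 and Sftpb at 0 throughout. Of 6 neutrophil markers, 4 were lower and 0 higher, with sums of 62.2 and 39.1 FPKM with Ang II, against 209 and 202 FPKM with IL-33. Of 10 macrophage, monocyte and dendritic cell markers, 4 were lower and 1 higher, with sums of 2035 and 934 FPKM with Ang II, against 2238 and 2203 FPKM with IL-33, and Itgax and Flt3 at 0 throughout. In bulk RNA, fewer cells of a type and less RNA per cell cannot be told apart, and the part of these cells in the noncoding RNA values was not tested. With haemoglobin genes left out of the scaling, the differences were 0.59 for Malat1 and 0.80 for Gas5, against 0.59 and 0.81 with them. That setting changes only the scale of a library and removes no RNA of other cells.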

How the data were processed

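Per the labels' protocols, RNA of 500 cells was copied with SMARTer chemistry, the cDNA was PCR-amplified and cut with an enzyme, and paired-end reads were taken. The authors deposited FPKM per gene with 2 decimals, per the file headers. The submitters' processing notes name mm10, HISAT, StringTie and edgeR; the sources used here give no roles, versions, annotation or strand setting. Without molecular identifiers PCR copies cannot be removed, and amplification from few cells can lose or multiply a transcript. No batch is named.

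Of 55401 gene models, 55141 matched GENCODE M21 (GRCm38) by identifier, the source of coordinates, overlaps and snoRNA sequences. The IL-33 libraries are close copies and enter as their mean (n = 1, Ang II n = 2, 1 residual degree of freedom). Testing was limited to genes averaging 1 FPKM or more over these 3 columns, done on log2(FPKM + 1) with limma 3.58.1 in R 4.3.3 (lmFit, eBayes with trend), two-sided, with Benjamini-Hochberg adjustment at 0.05; the scale understates changes of low genes. P-values reflect only library-to-library spread, possibly technical. Members and lists were chosen with earlier results of these data known. By rule, all members, the 3 most abundant genes of each related list and, for the small nucleolar RNAs, the 3 most abundant rows are named; the top genes of each cell marker list, also under the rule, are given only within its sum. The snoRNAs inside members and genes said to be so were named after their values were seen.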

Additional observations from a re-analysis of the deposited data

How the results depend on the processing

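Other pseudocounts (0.1 or 5), filters, scalings, the use of both IL-33 libraries as replicates and the omission of each library were tried. The number of genes past the adjusted threshold was 0 in all of these that allow a test except 1. Treating the IL-33 pair as 2 samples gave 1665 (486 higher, 1179 lower, 5.34% and 13.0% of 9095 genes), among them Snhg8 (adjusted p = 0.0234, limma) and Snhg1 (0.0436). That setting treats close copies as independent samples. Adding the replicate number as a replicate block to it gave 0 genes, with 632 higher and 1245 lower at an unadjusted p under 0.05. Deviations of same-numbered libraries had r = -0.0181 across genes. As the IL-33 libraries are close copies, their deviations are small, and this check cannot show whether the numbers mark pairs. The labels do not say that they do, and the numbers are not taken as pairs.

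Without an Ang II library no residual degree of freedom is left, and values carry no test. Snhg3 then had a difference of -0.44 without Ang II library 2, and Snhg5 one of 1.36. For Snhg5, leaving out each library gave -1.94 to 1.36, and a pseudocount of 5 gave 0.09; for Snhg3 the range was -0.44 to 2.26. The fitted difference of Snhg8, from a listed 0 and so no fold, was 8.63 with a pseudocount of 0.1 and 3.17 with one of 5, against 5.34 with 1. Malat1 ranged from 0.29 to 0.90 and Gas5 from 0.55 to 1.06 when libraries were left out. The number of members below both IL-33 libraries was 0 with FPKM rescaled to a common sum, 0 when scaled without haemoglobin genes, and 1 to 2 when a library was left out. The number above was 5 to 7 in every setting; filters and pseudocounts do not enter these counts. The median of the tested members was 0.86 to 1.36 with a library left out, the highest without Ang II library 2. The filter was applied anew each time, so the members tested changed when an Ang II library was left out. For the same 8 members the median was 1.21 in Ang II library 1 and 0.73 in library 2. The common sum was larger than the FPKM sum of any library. Rescaling to it therefore raised every value while the pseudocount and the filter stayed at 1, and 10845 genes were tested. The median of all tested genes was then 0.16, and the member differences in that setting are to be read relative to that. This setting does not separate library scale from the weight of the pseudocount. The cause of these shifts was not tested.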

Other observations

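Small nucleolar and small Cajal body RNA rows lay on both sides. Of 150 named rows, 42 had a value above 0 in a library. In both Ang II libraries 4 lay above both IL-33 values and 12 below, beside 17.1% and 24.4% of all gene models above 0 in a library. The 3 most abundant were Snord104, Snord49b and Snora70. Snord104 stood at 60.37 and 0 FPKM with Ang II, against 119.53 and 114.17 FPKM with IL-33. Snord49b overlapped between groups, at 68.84 and 26.00 FPKM with Ang II, against 36.21 and 39.65 FPKM with IL-33. Snora70 stood at 0 and 25.03 FPKM with Ang II, against 60.21 and 50.99 FPKM with IL-33. Rows above 0 numbered 14 and 28 in the Ang II libraries, against 19 and 15 in the IL-33 libraries.

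Genes were also classed by annotation alone, after the values had been seen. Long noncoding genes that hold a snoRNA gene on their strand numbered 69, and 22 were tested, of which 36.4% lay above and 31.8% below both IL-33 libraries in both Ang II libraries. Among 389 tested long noncoding genes that hold none, these shares were 17.2% and 24.7%. Among 148 tested protein-coding genes that hold a snoRNA gene they were 25.7% and 35.8%, and among 7056 that hold none 26.0% and 35.6%. An IL-33 mean under 1 FPKM, with which a gene passes the filter through the Ang II libraries, was found for 10 of the 22, 229 of the 389, 25 of the 148 and 1724 of the 7056, so the shares are tilted unequally and are not compared. With the members left out, 5 of 15 tested long noncoding hosts lay above and 6 below. No gene of any class passed the adjusted threshold.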
